A study of Mus musculus with 2 samples.

Results

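Interferon regulatory factors, the IRFs, are the transcription factors that turn the sensing of viral nucleic acid into interferon production and then carry out much of the interferon response. The set described here was chosen by gene symbol and lists 8 mouse genes: Irf1, Irf2, Irf3, Irf4, Irf5, Irf7, Irf8 and Irf9. Of these, 7 had a probe set of their own and were measured, out of 22180 named genes in all. Irf5, a factor of inflammatory cytokine induction, shared its only listed probe set with its neighbour Tnpo3, so it was given no value.

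The values come from 1 array of wildtype RAW264.7 cells and 1 array of the same line labelled HuR-deficient. These are mouse macrophage-like cells of an established line, and HuR, the product of Elavl1, is an RNA-binding protein known to stabilise mRNAs with AU- and U-rich stretches. Both cultures had been transfected for 8 hours with poly(I:C) of high molecular weight, an artificial double-stranded RNA, by means of lipofectamine 2000, at a labelled 1 mg/ml, which is high for a transfection and could be an error of unit in the labels. The sample title calls the deficient line a knockout (HuR-KO); how it was made, and whether it is a single clone, the labels do not say. No unstimulated culture was analysed here, so each value compares the 2 lines after stimulation and says nothing on the response to poly(I:C) itself. With 1 array per group there is no spread between replicates, no significance test could be run, and a difference between the arrays cannot be told apart from a difference between any 2 cultures. Every value is an RMA signal on the log2 scale, and differences were taken as HuR-deficient array minus wildtype array. Elavl1, the gene of the genotype label, had signals of 7.68 in wildtype and 7.75 on the other array, a difference of 0.07. Among the 500 genes with the closest mean signals, 84% differed by that much or more. Where the Elavl1 probe set lies relative to the part altered in the knockout is unknown, so this near-equal signal does not check the label.

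All IRFs share an amino-terminal DNA-binding domain with conserved tryptophans that reads GAAA repeats, found in the interferon-stimulated response element (ISRE). IRF3 and IRF7 lie inactive in the cytoplasm until the kinase TBK1 or IKK-epsilon phosphorylates them, and then switch on the interferon genes. IRF9 is the DNA-binding subunit of the complex ISGF3, which drives the genes that interferon induces. IRF1 activates and IRF2 competes at related sites, while IRF4 and IRF8 work largely with partners such as PU.1 and are known for roles in lymphoid and myeloid cells.

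The promoters of Irf8, Irf2 and Irf1, the 3 members with the largest positive differences, are shown first, because the 250 bases before their start sites held the motif matches found in the family. The sequences are RefSeq's, on build GRCm38.p6, and all 3 genes lie on the plus strand. Capitals mark matches to the core of the ISRE, which was searched as GAAA, any 2 letters and GAAA again, or to TTCNNNGAA, the core of the gamma-activated site (GAS) found at interferon-responsive genes. The printed stretches are chr11:53769764-53770013 for Irf1, chr8:46739495-46739744 for Irf2 and chr8:120736108-120736357 for Irf8.
Irf1: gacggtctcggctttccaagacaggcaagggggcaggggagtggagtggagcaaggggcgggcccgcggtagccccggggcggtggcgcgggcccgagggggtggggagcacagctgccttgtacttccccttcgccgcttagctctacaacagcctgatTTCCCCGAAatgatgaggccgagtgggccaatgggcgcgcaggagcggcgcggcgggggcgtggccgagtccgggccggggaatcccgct
Irf2: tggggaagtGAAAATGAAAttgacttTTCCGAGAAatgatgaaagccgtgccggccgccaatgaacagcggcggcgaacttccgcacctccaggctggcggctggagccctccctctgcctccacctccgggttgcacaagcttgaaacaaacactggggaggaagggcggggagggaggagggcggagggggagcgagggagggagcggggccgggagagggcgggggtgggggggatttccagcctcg
Irf8: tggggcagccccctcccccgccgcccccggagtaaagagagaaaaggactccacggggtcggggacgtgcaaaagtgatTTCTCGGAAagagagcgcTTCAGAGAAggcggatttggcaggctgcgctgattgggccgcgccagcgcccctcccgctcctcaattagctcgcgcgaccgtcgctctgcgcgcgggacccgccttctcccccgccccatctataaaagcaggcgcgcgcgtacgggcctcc
In Irf1, TTCCCCGAA begins 90 bases before the start site. In Irf2, GAAAATGAAA begins 241 bases before the start and TTCCGAGAA begins 224 bases before it, without overlap. In Irf8, TTCTCGGAA begins 171 bases and TTCAGAGAA 153 bases before the start. Both strands were searched over windows of 250 bases before to 50 bases after the start, of which the 8 genes had 11, some genes having several start sites. The further windows of Irf1 and Irf8 held no match. The other 5 genes, Irf3, Irf4, Irf5, Irf7 and Irf9, had no match to either motif in these windows, which says only that those letters are not there. Of all 32851 promoter windows of this length, 3.44% held the ISRE core and 8.30% held TTCNNNGAA. Counted by gene, over 27025 genes, the shares were 3.99% and 9.55%. A match is a description of the letters and does not show binding.

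The signals of Irf8, a factor of macrophage and dendritic cell development, differed the most. The probe set that stands for it read 9.03 in wildtype cells and 10.02 in cells labelled HuR-deficient. The difference was 0.98, a 1.98-fold higher signal, just short of the 2-fold (log2 1) used to count genes. Of the 500 genes with the closest mean signals, 1% showed a difference of that size, and the robust SD of their differences was 0.23. Among the 11905 genes that passed the signal filter, 111 had a larger positive difference than Irf8, and 132 stood at least 2-fold lower. A gene passed when the higher of its 2 signals reached 4.38, the median of all named values. Because bulk RNA was measured, more RNA per cell and more cells with a transcript cannot be told apart.

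Irf8 was the family member with a further probe set of its own, and the pair disagreed in size. The weaker probe set read 5.50 in wildtype and 5.69 in the other cells, a difference of 0.19. Both therefore read higher on the array labelled HuR-deficient, but 0.79 apart. Among 461 genes with exactly 2 probe sets past the filter, the median gap between a gene's differences was 0.25, and 25 genes (5.42%), Irf8 included, had a gap of 0.79 or more. In 147 of those genes the probe sets even had opposite signs. With the pair averaged, the Irf8 difference was 0.59, close to the 0.57 of Irf2, so the lead of Irf8 rests on its stronger probe set. Which transcript each probe set reads is not stated by the table used here.

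**Figure D1:**
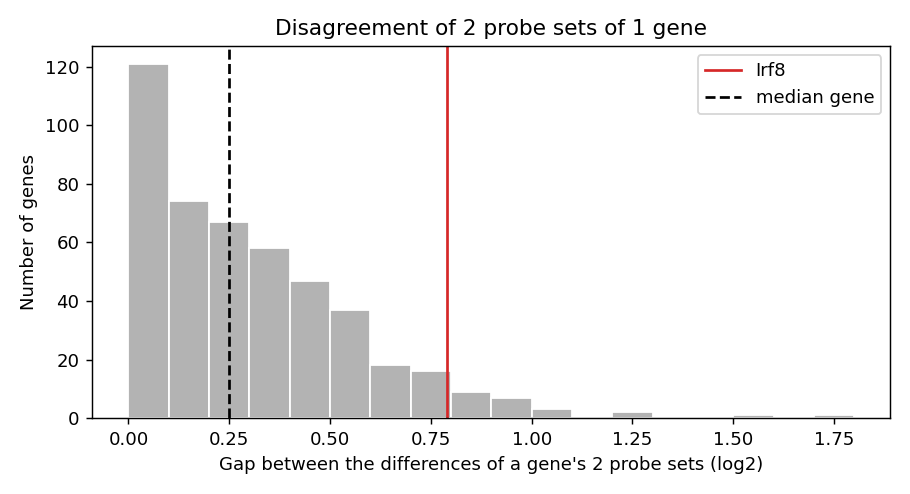
Histogram of the gap, on the log2 scale, between the differences of the 2 probe sets of 1 gene, with the number of genes on the vertical axis, for 461 genes. The solid line marks Irf8 at 0.79 and the dashed line the median gene at 0.25, so the disagreement over Irf8 lies toward the right end.

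Irf2 and Irf1, the pair that competes for shared sites, followed. Irf2, best known as an antagonist of IRF1, had a signal of 6.87 in wildtype and 7.43 on the array labelled HuR-deficient. Its difference of 0.57 is a 1.48-fold higher signal, and 11% of the 500 closest genes in signal showed a difference of that size. Irf1, an activator of antigen presentation and inflammatory genes, had signals of 6.004 and 6.339. Its difference of 0.33 was about the robust SD of genes of similar signal, also 0.33, and 31.8% of them differed by as much or more. The activator and its antagonist thus both read higher on the array labelled HuR-deficient, by more than 1 robust SD of similar genes for Irf2 and by about 1 for Irf1.

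IRF7 and IRF3, the factors that respond directly to RNA sensing, came next. Irf7, the interferon-inducible amplifier of interferon alpha production, had signals of 10.85 in wildtype and 11.05 on the other array. Its difference of 0.20 equals the robust SD of 0.20 among genes of similar signal, of which 33.6% matched or exceeded it. For its signal, Irf7 thus stood about as far out as Irf1, where that share was 31.8%. Irf3, the factor already present before infection, had the same value, 5.43, on both arrays to every digit deposited. Identical values also occurred for 251 of the genes that passed the filter (2.11%), Irf3 included, and do not show that mRNA levels were equal. IRF3 and IRF7 are switched on by phosphorylation, which mRNA signals do not measure.

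Irf9 had signals of 5.79 and 5.70, a difference of -0.09 that 78% of similar genes matched or exceeded. Irf4, known for alternative macrophage activation and lymphocyte differentiation, had signals of 3.56 and 3.24. Both lie under the floor of 4.38, so neither was shown to be above background and its difference of -0.32 cannot be read.

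**Figure D2:**
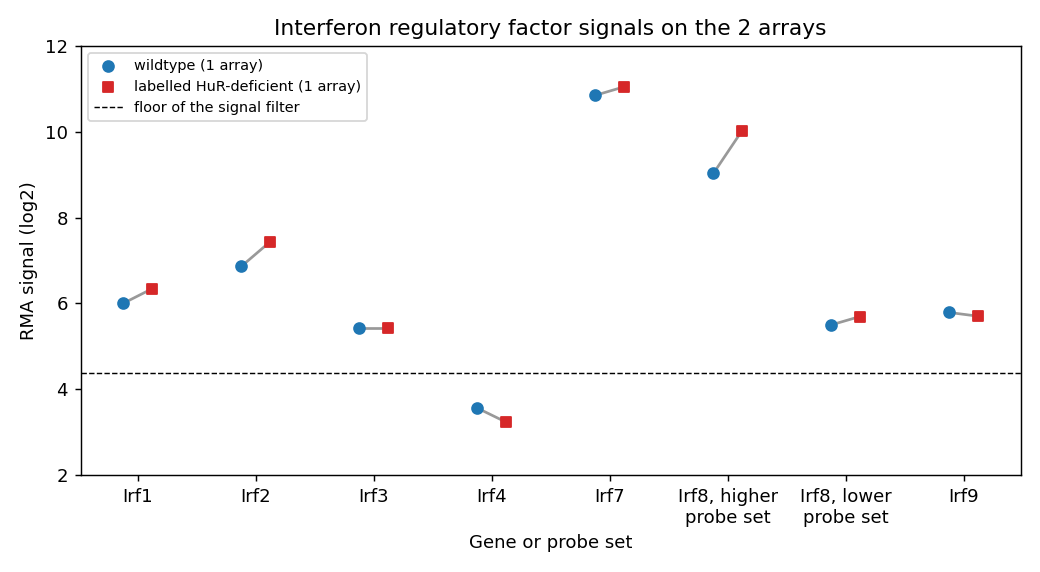
RMA signal on the log2 scale for each measured Irf gene, with Irf8's 2 probe sets drawn separately, on the wildtype array (circles) and the array labelled HuR-deficient (squares). The dashed line is the floor of 4.38. Irf8's stronger probe set goes from 9.03 to 10.02, Irf3 stays at 5.43, and Irf4 lies under the floor on both arrays.

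As a family, 4 of the 7 measured members had a positive difference, 2 a negative one and 1 none, and the median was 0.20. Irf4, which lay under the floor, is counted as negative here. Of the 6 members that passed the filter, 4 were positive, with a median of 0.26. Over all 22180 named genes the median was 0.00 and 49.2% lay above 0. No member reached 2-fold, where 1.99% of genes that passed the filter did in either direction, so a count of 0 among so few genes is not a result about them. At 1.5-fold, which 10.8% of genes passed in either direction, the count was 1, Irf8. Signals of different probe sets depend on their probes, so these values order the differences and not the mRNA levels of the family.

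**Figure D3:**
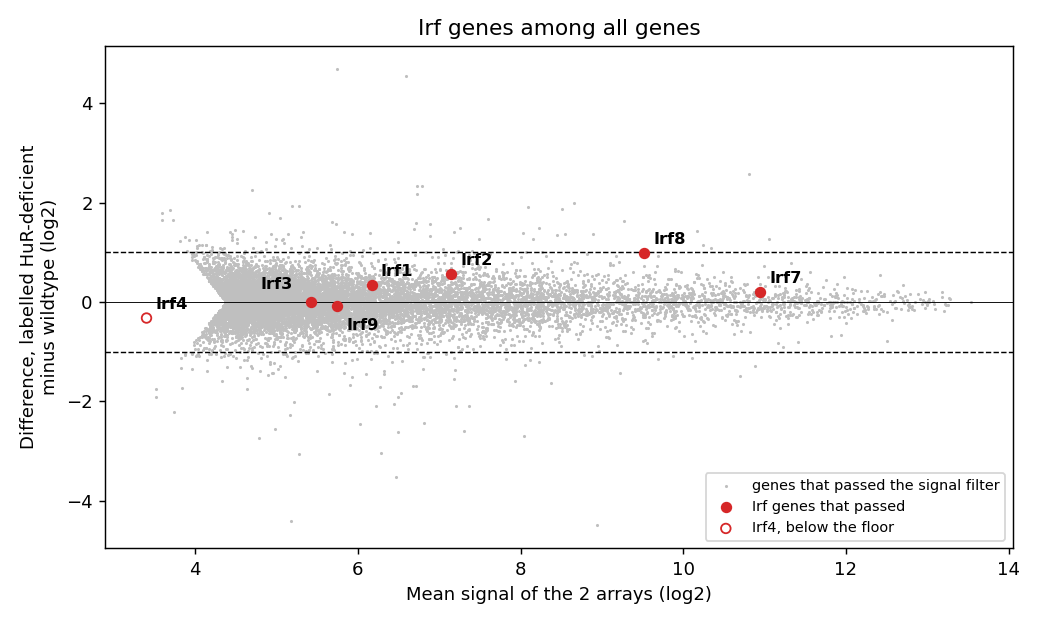
Difference between the arrays (labelled HuR-deficient minus wildtype, log2) against the mean signal of both (log2), with 11905 genes that passed the filter in grey and the Irf genes in red. Dashed lines mark 2-fold. Irf8 at 0.98 sits at the upper line, Irf2 at 0.57 lies above most genes of its signal, and Irf4 (open circle) is below the floor.

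The genes with the pattern most like Irf8's over both arrays, by Euclidean distance of the log2 signals, were Polr2f, a shared RNA polymerase subunit gene (distance 0.19, difference 0.71), Snord104, a small nucleolar RNA gene (distance 0.24, difference 0.92), and Spc24, a kinetochore gene (distance 0.29, difference 0.71). With 2 arrays, this likeness is a matter of similar signals and carries little information.

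The genes of proteins that bind IRF2 as corepressors had differences from -0.28 to 0.15. Irf2bp1 had signals of 6.15 and 6.11, a difference of -0.04. Irf2bp2 had the same signal, 5.62, on both arrays in its stronger probe set, and a difference of 0.15 in its weaker one. Irf2bpl had signals of 6.13 and 5.85, a difference of -0.28, which 42.8% of similar genes matched or exceeded. None of these corepressor genes therefore lay outside the spread of genes of similar signal.

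The rest of the pathway was described with 11 lists of sensors, kinases, partners and textbook targets, 150 symbols in all, of which 138 were measured. Of these, 92 had a positive and 42 a negative difference, with a median of 0.11. Among the 124 past the filter, 2 stood at least 2-fold higher (against 0.882% of all genes that passed) and 2 at least 2-fold lower (against 1.11%). Many of the listed genes are known to be induced by interferon, a gene can stand in several lists, and no test was run on any list.

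Upstream of IRF3 and IRF7, none of the genes reached 2-fold, against 1.99% of all genes that passed the filter, in either direction. Among so few genes, such a count is not a result about them. In the list of kinases and adaptors, 9 of 15 measured genes lay above 0 and 4 below, with a median of 0.11. Among the 14 that passed the filter the median was 0.20. Myd88, the adaptor of most Toll-like receptors, had the largest difference there, with signals of 6.66 and 7.45 (difference 0.78), and 4.8% of similar genes differed as much. Mavs, the mitochondrial adaptor of the RNA helicases, had signals of 4.81 and 5.38 (difference 0.56). Of the IRF3 kinase genes, Tbk1 differed by -0.07 (7.57 and 7.50), which 82.8% of similar genes matched or exceeded. Ikbke differed by 0.56 (4.51 and 5.07), which 8.2% of similar genes matched or exceeded. Its wildtype signal lay close to the floor of 4.38. Slc15a4, a lysosomal transporter needed for endosomal Toll-like receptor signalling, had signals of 4.89 and 4.31, the second below the floor (difference -0.58). The kinase gene Irak1 differed by -0.39. The sensor list had a median of 0.09 over 10 genes, 7 above 0. Its extremes among genes past the filter were Tlr9 (0.56) and Tlr3 (0.31) on one side and Tlr4 (-0.24) on the other, while the cytosolic helicase genes Ddx58, which encodes RIG-I, and Ifih1, which encodes MDA5, differed by -0.05 and 0.03.

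Genes between the interferon receptor and ISGF3 had a median of 0.05 over 10 measured members. The receptor-associated kinase genes Tyk2 (5.05 and 5.71, difference 0.66) and Jak2 (difference 0.59) lay highest, and the receptor genes Ifnar2 (-0.41) and Ifngr1 (-0.25) lowest. Stat2, a partner of IRF9, had signals of 5.81 and 5.87, a difference of 0.07. Irf9 and Stat2 thus each differed by less than 0.1 in size.

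Partners and cofactors of the IRFs, among them AP-1, NF-kappaB and PU.1 family genes, acetyltransferases and the IRF2-binding corepressors, had a list median of 0.00 over 14 measured genes. Batf2, an AP-1 family partner, had signals of 5.73 and 6.41 (difference 0.67), and the acetyltransferase gene Ep300 differed by 0.46. Spi1, which encodes PU.1, had signals of 8.32 and 8.65, a difference of 0.33. On the other side, among genes past the filter, were Jun (-0.50) and Irf2bpl. Among genes that restrain or degrade IRFs the median was 0.06 over 13 genes. Trim21, a ubiquitin ligase that targets several IRFs, was highest (6.62 and 7.28, difference 0.66), with the deubiquitinase gene Otud5 at 0.31. Tnfaip3, which encodes the inhibitor A20, had signals of 5.11 and 4.50 (difference -0.61), and the autophagy gene Atg5 differed by -0.36.

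Downstream, genes counted as targets of IRF1 had the largest list median, 0.36 over 20 measured genes, with 18 above 0 and 2 below. Of all named genes, 49.2% lay above 0. Il27, an interleukin subunit gene, had signals of 7.48 and 8.98 (difference 1.49), and the chemokine gene Cxcl9 had 5.24 and 6.61 (difference 1.37). These were the members at least 2-fold higher, as were 0.882% of all genes that passed the filter. The antigen presentation genes Tap1 (8.51 and 9.04, difference 0.53), Psmb9 (0.47), Tap2 (0.38), Tapbp (0.35) and Psmb10 (0.32) lay above 0 together, while Psmb8 (0.08) and B2m (-0.06) differed little. B2m was the member past the filter with a negative difference. The list was drawn up with earlier results of these data known, and several of its genes also respond to NF-kappaB, so it is not independent evidence on Irf1.

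The targets of IRF3 and IRF7 had a median of 0.15 over 16 genes, with 12 above 0 and 4 below. Rsad2, which encodes the antiviral enzyme viperin, had signals of 7.64 and 8.22 (difference 0.58), and the chemokine gene Cxcl10 had 12.15 and 12.69 (difference 0.55). Ifnb1, the first interferon gene that IRF3 activates, had 11.80 on both arrays, with a difference of 0.0050, and Ccl5 differed by 0.12. Ifna2, an interferon alpha gene, was the member at least 2-fold lower (5.43 and 4.42, difference -1.01). Interferon alpha genes are near-identical, so probe sets may read several of them. Pmaip1, which encodes the death protein NOXA, differed by -0.38.

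The ISGF3 targets had a median of 0.09 over 19 genes, with 15 above 0. None was at 2-fold, against 1.99% of all genes that passed the filter, so that count is not a result about them. Cmpk2, a nucleotide kinase gene (7.88 and 8.54, difference 0.66), and the antiviral GTPase gene Mx2 (9.68 and 10.28, difference 0.60) lay highest, and Ddx60 (-0.17) and Rtp4 (-0.08) lowest. The 2 Mx genes therefore differed from each other, as Mx1 had a difference of -0.03.

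For IRF8, whose stronger probe set differed the most, the 13 measured targets had a median of 0.15, with 9 above 0 and 4 below. Over the 12 targets that passed the filter the median was 0.10. Pml, the nuclear body gene (5.81 and 6.53, difference 0.72), and Nos2, which encodes inducible nitric oxide synthase (5.08 and 5.77, difference 0.69), lay highest. The Krüppel-like factor gene Klf4 (-0.25) and the cathepsin gene Ctss (-0.24) lay lowest, and Cybb, the NADPH oxidase gene that is a classical IRF8 target, differed by 0.04. Targets of IRF5 had a median of 0.19 over 10 genes. Over the 7 that passed the filter it was 0.11, with 4 above 0 and 3 below. Tnf (0.31) and Il6 (0.25) lay highest among those past the filter, and Il1a (-0.57) and Ccl3 (-0.21) lowest. Il1a had signals of 4.60 and 4.03, the second below the floor of 4.38. Of the 9 IRF4 targets, 4 passed the filter. Among these Il1rn, the interleukin-1 receptor antagonist gene, was at least 2-fold lower (7.47 and 5.42, difference -2.05), the class II transactivator gene Ciita differed by 0.53, Arg1 by 0.18 and Ccl22 by -0.25.

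**Figure D4:**
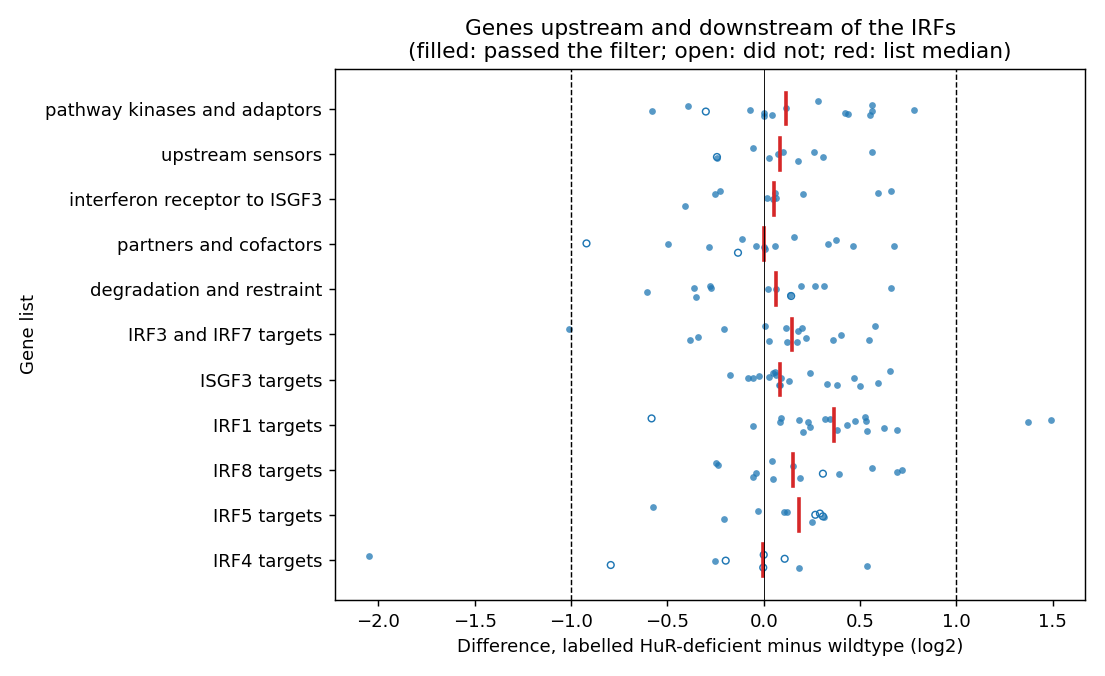
Difference between the arrays (log2, labelled HuR-deficient minus wildtype) for each measured gene of the 11 lists, with filled points for genes that passed the signal filter, open points for the others and a red bar at each list's median. Dashed lines mark 2-fold. The bar of the IRF1 targets stands at 0.36, where Il27 (1.49) and Cxcl9 (1.37) are past 2-fold, and the lone point far left is Il1rn at -2.05.

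Promoter letters were also set against the differences of all genes. Of genes that passed the filter and had the ISRE core in a promoter window, 356 in number, 53.4% lay above 0, with a median difference of 0.05. Of the 8947 without it, 49.3% lay above 0, with a median of 0.00. For the longer ISRE form, GAAA, any 2 letters and GAAACT, held by 0.271% of windows, 28 of 39 genes lay above 0 and 11 below, with a median of 0.17. Of the 9264 without the longer form, 49.3% lay above 0, with a median of 0.00. None of the 39 reached 2-fold, against 1.82% of those without, and among so few that count is not a result. Trim30d (0.94), Gbp7 (0.87), Tgfbi (0.74), 2610528A11Rik (0.70) and Cxcl10 (0.55) lay highest among the 39, and Trim30a (-0.79) and Gm15834 (-0.48) lowest. Left without the genes already in the lists, 22 of 31 lay above 0, with a median again of 0.17. Several of the 39 are close relatives, such as the Trim30, Ifit, Gbp, Phf11 and Apol9 genes, so they are not separate observations. For TTCNNNGAA, the motif of the Irf1, Irf2 and Irf8 promoters, the 761 genes with a match had a median of 0.01 and 51.0% above 0, against 0.00 and 49.3% for the 8542 without.

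Markers of cell types were read beside these values. Of 12 macrophage markers, 11 passed the filter. The summed log2 signals of all 12 were 104.7 in wildtype and 106.5 on the other array, though 8 differences lay below 0 and 4 above. Sums here cover all measured markers of a type, passed or not. The median difference of the 12 macrophage markers was -0.06, and Adgre1, a macrophage surface receptor gene, was the member past 2-fold (difference 1.57). Markers of other cell types, some of which express Irf4 or Irf8, were weak on both arrays. For B and plasma cells 1 of 6 measured markers passed (summed log2 signals of 22.3 and 22.0), for T and NK cells 3 of 7 (27.6 and 27.3) and for dendritic cells 3 of 6 (27.0 and 27.1), with no marker signal above 5.68. For neutrophils and mast cells 1 of 6 passed (22.3 and 21.2), and for fibroblasts, epithelium and endothelium 5 of 11 (47.3 and 44.2). Their part in the Irf values was not tested.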

How the data were processed

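The authors deposited 1 column of log2 values per array, which per the submitters' processing notes come from RMA; version, annotation and build: not given in the sources used here. This method equalises the distribution of signals between arrays, so a change in total mRNA cannot be seen. The values, 0.434 to 13.77, were taken to be log2 from their range. Of 41345 probe sets, 23521 had 1 gene symbol in the platform's table and were used; 1814 had several and 16010 none. A gene with several was read from the probe set with the highest mean. A gene's difference was set beside those of the 500 genes nearest in mean signal, as a description.

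Members and lists were chosen with earlier results of these data known. Named genes were the members, Elavl1, Ifnb1, Cxcl10, Ccl5, the IRF2-binding protein genes, list members at 2-fold, up to 2 per list and direction, and the 3 genes closest to the member with the largest difference; others, such as the antigen presentation genes and those with the longer motif, were picked after their values were seen. RIG-I was matched as Ddx58; 12 listed symbols had no own probe set.

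The 2-fold count and the comparison with genes of similar signal were run on simulated data with shifts well past the threshold. That run does not check smaller differences, the lists, the promoters or the probe set pairs. Alternatives were averaged probe sets, centring, a second quantile normalisation, a loess trend on signal taken out (span 0.3), other filters and a 1.5-fold threshold. The software was pandas 2.3.3 and numpy 2.4.6 under Python 3.11.15, with statsmodels 0.14.6 for loess and matplotlib 3.10.9 for plots. The number of arrays limits the precision.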

Additional observations from a re-analysis of the deposited data

How the results depend on the processing

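No Irf gene reached 2-fold under any centring, normalisation, averaging or filter that was run; at a 1.5-fold threshold the count was 1. The family median of 0.20 ranged from 0.20 to 0.26 over the alternatives. Of 28 member differences recomputed, 27 moved by less than 0.1 and none changed sign, Irf3 aside, whose 0.00 has none; the exception was Irf8, at 0.59 with its probe sets averaged. All 44 list medians, recomputed under alternatives chosen after seeing the data, moved by less than 0.1. Centring changed nothing, because the median difference of all genes was already 0.00. No replicate could be left out, and no paired analysis was possible because each group has 1 array.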

Other observations

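The probe set listed for both Irf5 and Tnpo3, a nuclear import receptor gene, read 7.34 on both arrays (difference -0.01). It cannot be assigned to either gene. Spib, a relative of PU.1 that can partner IRF4 and IRF8, had signals of 3.02 and 2.10, both below the floor of 4.38, so its difference of -0.92 cannot be read.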
